A study of Mus musculus with 6 samples.

Results

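A group of 9 genes that set plasmin formation and the start of clotting at the cell surface were followed in AY-mICC, a mouse cell line of intrahepatic cholangiocarcinoma, which is a tumour of bile duct cells inside the liver. They are the plasminogen activators Plau and Plat, the activator receptor Plaur, the inhibitors Serpine2 and Serpinb2, and the tissue factor group of F3, Tfpi, Tfpi2 and Thbd. All 9 were found among the 55414 gene identifiers of the count table. They were chosen from the pathway with the difference between shCopa and shCon already known, so their own differences are given as a description, with no p-value. Where a call of one of them at the threshold of the fit is stated, it is a description too and not evidence. The study compared 3 libraries of control cells (shCon) with 3 libraries of cells with a Copa knockdown (shCopa). The product of Copa is the alpha subunit of the COPI coat, which forms vesicles that take proteins back to the endoplasmic reticulum from the Golgi. All cells were kept in DMEM medium with fetal bovine serum and antibiotics, and no further treatment is listed. The hairpin sequences, the number of hairpins or clones, and whether replicates were separate cultures are not stated in the labels. The p-values therefore weigh the group difference only against the spread between libraries of a group, which may be technical.

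Plasminogen is a circulating precursor that is cut to plasmin, a protease that dissolves fibrin and degrades matrix. Plau encodes urokinase (uPA), which acts mainly on cells when bound to its receptor uPAR, the product of Plaur, and Plat encodes tissue-type plasminogen activator (tPA), which acts mainly on fibrin. Serpins of this system, among them PAI-2 (Serpinb2) and protease nexin-1 (Serpine2), trap the activators in inactive complexes. Tissue factor, the product of F3, is the membrane receptor of factor VII that starts coagulation, and TFPI, the product of Tfpi, shuts that complex off. Thrombomodulin, the product of Thbd, turns thrombin from a clotting enzyme into an activator of protein C. Both systems are known in carcinoma cells, where uPA and its receptor take part in invasion and tissue factor is often displayed on the cell surface.

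Library totals ran from 19634938 to 24546204 estimated counts. Copa was at 420, 517 and 527 CPM (counts scaled to library size) in shCon and at 186, 182 and 187 CPM in shCopa, 37.9% of the control level. Library shCon 1 stood apart: across tested genes its log2 CPM correlated at r = 0.973 and 0.972 with the other shCon libraries, which correlated with each other at r = 0.990. Of 7 bile duct markers, the keratins Krt7, Krt8, Krt18 and Krt19 and the factor Sox9 were at over 100 CPM in every library, and Epcam had 4 to 17 counts. Their sum was 4960 to 5967 CPM in shCon and 3881 to 4102 CPM in shCopa, but the markers differed unequally. Krt7 was at means of 680 and 251 CPM, while Krt19 (563 and 537 CPM) overlapped between the groups. Krt8 was at 2351 and 1864 CPM, Krt18 at 1599 and 1179, Sox9 at 166 and 143 and Cdh1 at 36.2 and 26.6. Of 7 endothelial markers, Tie1, Erg and Emcn had no count in any library and Cdh5 had at most 2. The sum of those 7 markers was 0.0822 to 0.232 CPM in shCon and 1.55 to 3.59 CPM in shCopa, in shCopa most of it Kdr. The sum of 7 macrophage markers was 277 to 287 CPM in shCon and 157 to 170 CPM in shCopa, but its members did not move together. Csf1r (means of 165 and 87.9 CPM) and Cd14 (102 and 50.3 CPM) were lower in shCopa, Lyz2 (1.46 and 8.21 CPM) and Ptprc (0.0280 and 1.09 CPM) were higher, Cd68 was at 13.4 and 14.5 CPM, and Adgre1 and Fcgr1 had at most 1 count. The sum of 6 platelet and megakaryocyte markers was 2.47 to 2.92 CPM in shCon and 6.83 to 8.06 CPM in shCopa, most of it Itga2b (2.29 and 5.82 CPM), while 4 of the 6 had under 10 counts in every library. The sum of 7 hepatocyte markers overlapped (26.4 to 40.6 and 25.8 to 28.1 CPM), with Alb higher in shCopa (9.90 and 22.7 CPM), Fgb lower (22.8 and 3.23 CPM) and 4 of the 7 under 10 counts. The sum of 7 fibroblast markers, most of it Dcn, was 184 to 223 CPM in shCon and 168 to 183 CPM in shCopa. Of the others, Col1a1 was higher in shCopa (means of 1.19 and 2.27 CPM) and Pdgfrb lower (2.26 and 0.706 CPM). Under 10 counts in every library were 4 of the 7. In bulk RNA, fewer cells that carry a transcript and less of it per cell cannot be told apart.

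In shCopa, F3, Plau and Tfpi stood above control in every library, Plat stood slightly below, and Plaur, Thbd and Serpine2 overlapped with control. Serpinb2 and Tfpi2 were at or near 0 in both groups. Of the 9 genes, 7 had enough counts to enter the fit across all genes, and Serpinb2 and Tfpi2 did not. By edgeR's quasi-likelihood test at a Benjamini-Hochberg adjusted p of 0.05, 3 of these 7 were called higher and 0 lower, against 36.5% of all 14807 tested genes called, 18.2% higher and 18.4% lower. At an unadjusted p under 0.05 the number lower was 1, and DESeq2 and limma-voom called 0 lower. Libraries of shCon and shCopa did not overlap in 4 of the 7, as in 54% of tested genes. The 9 genes were chosen on this contrast, and nothing is read from these counts. Plat and Plaur also passed without shCon 1 or with offsets for transcript length and GC content, and Thbd without shCon 1.

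**Figure D1:**
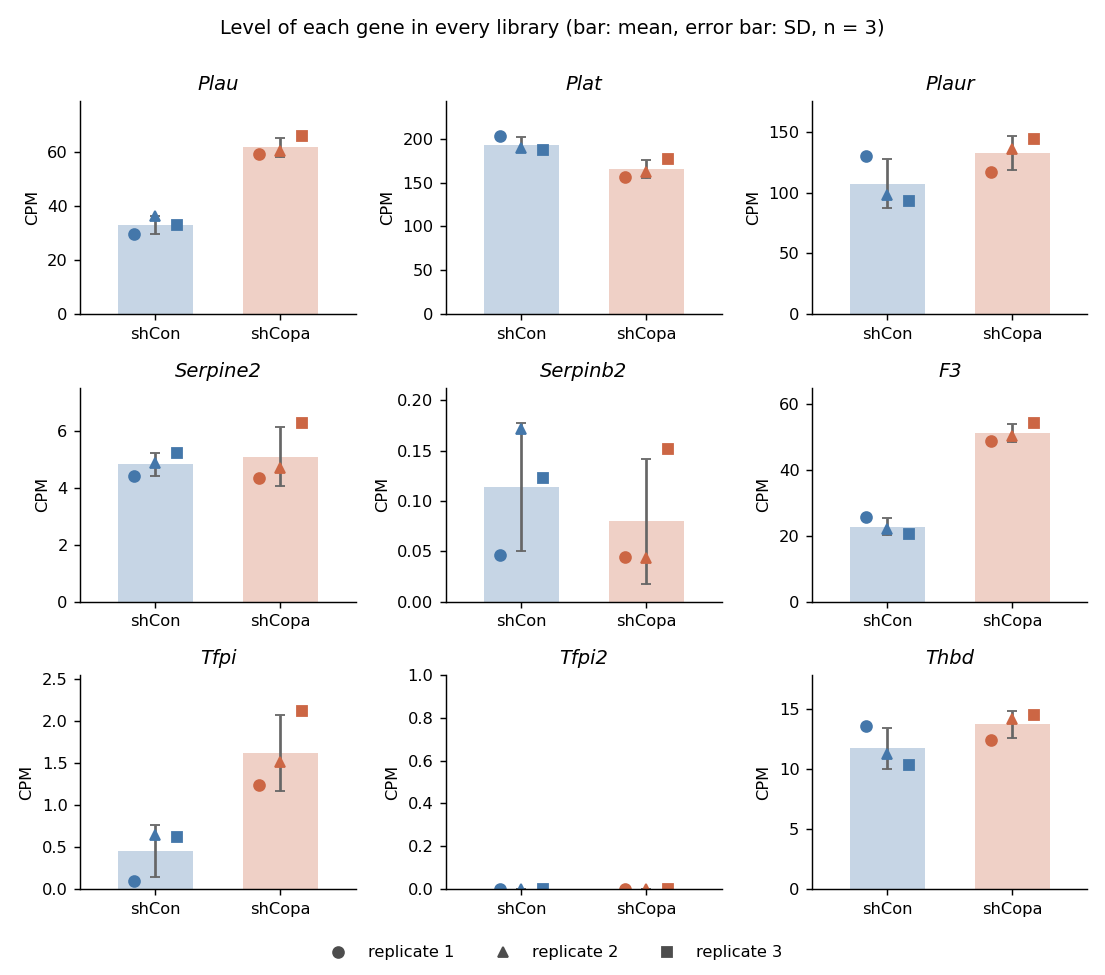
Each panel plots 1 gene, with CPM on a linear axis from 0 for shCon and shCopa; bars are means, error bars the SD (n = 3) and symbols the libraries by replicate number. F3 (20.6 to 25.8 CPM in shCon, 49.0 to 54.2 CPM in shCopa) and Plau (29.7 to 36.4 and 59.4 to 65.9 CPM) show a gap between the groups, while Tfpi2 is at 0 throughout.

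The activators differed in opposite directions, Plau upward and Plat slightly downward, so that their levels lay closer together in shCopa. Plat was not called lower in the main fit. Plau stood at 29.7, 36.4 and 33.1 CPM in shCon 1, 2 and 3, against 59.4, 60.4 and 65.9 CPM in shCopa 1, 2 and 3. Every shCopa library lay well above every control library. The mean went from 33.1 ± 3.34 to 61.9 ± 3.53 CPM (SD, n = 3 each), which is 1.87-fold or 0.90 ± 0.11 (SE) as a log2 fold change. It ranged from 0.83 to 0.97 when each library was left out in turn. Plat stood at 203, 189 and 187 CPM in shCon, against 157, 162 and 177 CPM in shCopa. The groups did not overlap, and the gap between shCon 3 and shCopa 3, the nearest pair, was of about the size of the SD within a group. The mean went from 193 ± 8.67 to 165 ± 10.7 CPM, 85.8% of control (log2 fold change -0.22 ± 0.09).

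Per kilobase of transcript, the sum of both activators hardly differed while its make-up did. Plau plus Plat came to 93.0, 90.5 and 88.0 CPM per kb in shCon and to 87.4, 90.0 and 98.4 CPM per kb in shCopa, and these ranges overlapped. Of this sum, Plau made up 13.7%, 17.2% and 16.1% in shCon and 29.0%, 28.6% and 28.6% in shCopa. The shares in shCopa lay within 1 percentage point of each other and above all control shares. The ratio of Plau to Plat was 0.186 ± 0.0252 in shCon and 0.404 ± 0.00440 in shCopa on this scale. These are ratios of transcripts, and activator protein was not measured here.

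Plaur, the urokinase receptor, stood at 130, 98.3 and 93.1 CPM in shCon, against 117, 136 and 144 CPM in shCopa. The groups overlapped through shCon 1, which was higher than shCopa 1. The mean went from 107 ± 20.2 to 132 ± 14.1 CPM (log2 fold change 0.30 ± 0.15, 1.23-fold), and the log2 fold change was 0.46 without shCon 1 and 0.20 without shCon 3. Plau differed by more than its receptor, and the ratio of Plaur to Plau per kilobase was 6.82, 4.20 and 4.37 in shCon and 3.06, 3.50 and 3.40 in shCopa. All 3 shCopa ratios were below all control ratios. The promoter of Plaur is shown because it holds an AP-1 match, a feature it shares with F3 below. It is the RefSeq window of GRCm38.p6, chr7:24462233-24462532, plus strand, from 250 bases before to 50 after the annotated start, with matches to the motifs searched in capitals.
Plaur: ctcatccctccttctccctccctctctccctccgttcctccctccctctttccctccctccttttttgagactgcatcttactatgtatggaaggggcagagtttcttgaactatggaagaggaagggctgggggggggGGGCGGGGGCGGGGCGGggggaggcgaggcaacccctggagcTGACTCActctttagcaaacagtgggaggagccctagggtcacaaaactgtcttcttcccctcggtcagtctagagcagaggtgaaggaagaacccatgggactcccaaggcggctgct

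Neither inhibitor among the 9 genes parted the groups. Serpine2, which encodes protease nexin-1, an inhibitor of thrombin and of both activators, stood at 4.41, 4.89 and 5.22 CPM in shCon, against 4.34, 4.71 and 6.27 CPM in shCopa. The lowest value of all 6 was in shCopa 1 and the highest in shCopa 3. The log2 fold change was 0.07 ± 0.19, turned to -0.10 without shCopa 3 and reached 0.18 without shCopa 1. Serpinb2, which encodes PAI-2, was read with 1, 4 and 3 counts in shCon, against 1, 1 and 3 counts in shCopa, which gives no usable fold change. In the mouse annotation used for names, GENCODE M21, an exon of Serpinb2 overlaps one of the neighbouring Serpinb10 on the same strand, and no exon of the other 8 genes overlaps another gene. The Serpine2 promoter is printed for contrast with F3 and Plaur, as it holds GC boxes and no AP-1 match (RefSeq, GRCm38.p6, chr1:79858616-79858915, minus strand, matches in capitals).
Serpine2: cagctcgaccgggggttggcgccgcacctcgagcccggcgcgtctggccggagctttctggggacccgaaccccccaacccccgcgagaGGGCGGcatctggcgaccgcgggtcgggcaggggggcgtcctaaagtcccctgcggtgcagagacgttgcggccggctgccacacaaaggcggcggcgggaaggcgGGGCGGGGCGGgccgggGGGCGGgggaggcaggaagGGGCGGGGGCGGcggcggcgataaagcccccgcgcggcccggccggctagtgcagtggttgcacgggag

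F3, the gene of tissue factor, stood at 25.8, 22.1 and 20.6 CPM in shCon, against 49.0, 50.5 and 54.2 CPM in shCopa. The lowest shCopa library lay well above the highest control library. The mean went from 22.8 ± 2.65 to 51.2 ± 2.70 CPM, a log2 fold change of 1.17 ± 0.11 or 2.24-fold, and it ranged from 1.09 to 1.26 with each library left out in turn. The F3 promoter is printed because it holds a pair of AP-1 matches beside a match to the NF-kB motif (RefSeq, GRCm38.p6, chr3:121723287-121723586, plus strand, matches in capitals).
F3: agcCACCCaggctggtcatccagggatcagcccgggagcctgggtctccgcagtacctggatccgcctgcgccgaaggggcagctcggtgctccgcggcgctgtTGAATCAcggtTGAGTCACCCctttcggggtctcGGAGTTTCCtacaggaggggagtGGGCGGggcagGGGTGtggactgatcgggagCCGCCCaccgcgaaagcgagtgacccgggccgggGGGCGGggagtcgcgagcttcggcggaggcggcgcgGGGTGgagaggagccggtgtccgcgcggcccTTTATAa

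Tfpi, whose product inhibits the tissue factor complex, was far below F3 in every library. Its counts were 2, 15 and 15 in shCon, against 28, 35 and 42 in shCopa, or 0.0929, 0.644 and 0.616 CPM and 1.24, 1.51 and 2.12 CPM. The groups did not overlap, and shCon 1 was far below the other control libraries. The log2 fold change was 1.81 ± 0.55 (3.51-fold), and 1.35 without shCon 1. The call was lost without shCon 2, shCon 3 or any 1 of the shCopa libraries. Tfpi is also known from endothelial cells. Their marker sum, given above, was higher in shCopa mostly through Kdr, and Tie1, Erg and Emcn had no count. The part of such cells in the difference of Tfpi was not tested. Its related gene Tfpi2, which encodes a matrix-bound inhibitor of plasmin and other proteases, had 0 counts in all 6 libraries, where 3 counts, the upper limit that 0 allows for counting error, correspond to 0.123 to 0.152 CPM. The first of 2 starts listed for Tfpi is printed beside F3, its target's gene (RefSeq, GRCm38.p6, chr2:84476710-84477009, minus strand, matches in capitals).
Tfpi: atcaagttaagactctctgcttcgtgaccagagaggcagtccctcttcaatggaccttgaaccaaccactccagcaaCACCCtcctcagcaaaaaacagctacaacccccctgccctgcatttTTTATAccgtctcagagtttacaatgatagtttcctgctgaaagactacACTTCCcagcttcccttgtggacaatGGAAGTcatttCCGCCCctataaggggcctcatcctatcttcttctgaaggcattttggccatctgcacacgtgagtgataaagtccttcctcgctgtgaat

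Thbd, the gene of thrombomodulin, stood at 13.6, 11.2 and 10.3 CPM in shCon, against 12.4, 14.2 and 14.5 CPM in shCopa. As for Plaur, shCon 1 lay above shCopa 1, and the groups overlapped. The mean went from 11.7 ± 1.68 to 13.7 ± 1.14 CPM (log2 fold change 0.23 ± 0.15, and 0.34 without shCon 1). The ratio of F3 to Thbd transcripts per kilobase was 3.78, 3.92 and 3.98 in shCon and 7.86, 7.09 and 7.43 in shCopa. In shCon 1, F3 and Thbd were both above the other controls, and this ratio differed little among the 3 control libraries. The ratio of F3 to Tfpi was 588, 72.8 and 70.9 in shCon and 83.7, 70.8 and 54.1 in shCopa, and these ranges overlapped. Its value in shCon 1 rests on 2 counts of Tfpi. These are ratios of transcripts, and neither protein nor clotting was measured here.

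**Figure D2:**
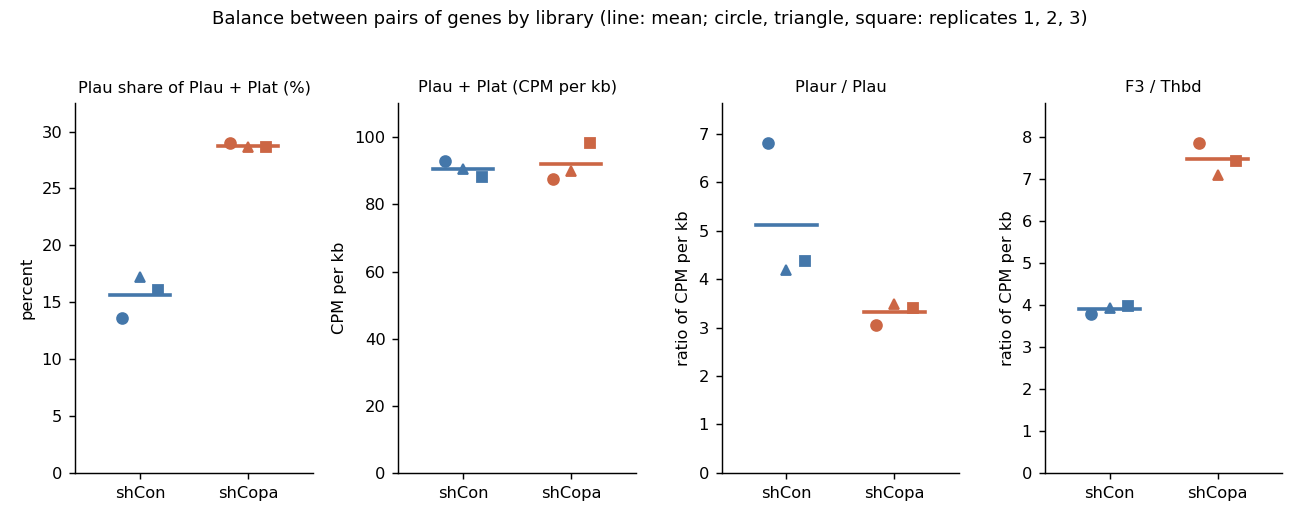
Each panel plots 1 quantity per library on a linear axis from 0, formed from CPM per kb of transcript; symbols are replicates 1 to 3 and lines are group means. The Plau share is 13.7% to 17.2% in shCon and 28.6% to 29.0% in shCopa while the sum of Plau and Plat overlaps. F3 over Thbd is 3.78 to 3.98 in shCon and 7.09 to 7.86 in shCopa, and F3 over Tfpi is not plotted.

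Ordered by control level per kilobase of transcript, Plat (76.4 ± 3.43 CPM per kb) and Plaur (71.2 ± 13.4) came first, with overlapping libraries. Plau (14.1 ± 1.43) and F3 (12.2 ± 1.42) followed, and these overlapped too. Thbd (3.14 ± 0.451) and Serpine2 (2.19 ± 0.184) came next and did not overlap with each other. Tfpi (0.114 ± 0.0783) and Serpinb2 (0.0570 ± 0.0317) overlapped near the detection limit, and Tfpi2 was at 0. In shCopa the order at the top changed: Plaur (87.8 ± 9.34) stood above Plat (65.5 ± 4.22) with no overlap between their libraries. F3 (27.4 ± 1.44) and Plau (26.4 ± 1.51) again overlapped, and the places of Thbd (3.68 ± 0.306), Serpine2 (2.31 ± 0.464), Tfpi (0.410 ± 0.114) and Serpinb2 (0.0399 ± 0.0312) were as in control. F3 and Plau thus lay close to each other in level in both groups.

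**Figure D3:**
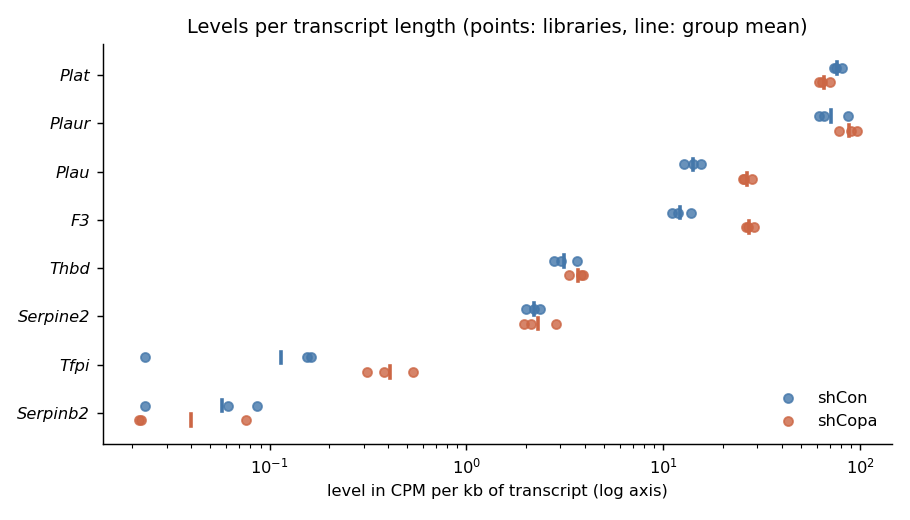
The plot gives CPM per kb of transcript on a log axis for 8 of the 9 genes (Tfpi2, at 0, is left out), with a point for each library and a line for each group mean. Levels run from under 0.1 CPM per kb for Serpinb2 to 76.4 CPM per kb for Plat in shCon, and Plaur takes the first place in shCopa at 87.8 CPM per kb.

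For each of the 7 tested genes, the gene with the most similar profile over the 6 libraries was sought among 9569 genes with a mean of at least 10 CPM. The measure was the root mean square difference of log2 CPM after each gene's own shCon mean was subtracted. Slc25a25 was nearest to F3 (0.0234), Nat10 to Plau (0.0373), Snap47 to Plaur (0.0488), Ctps2 to Plat (0.0173), Rpsa to Thbd (0.0235) and Extl2 to Serpine2 (0.0702). Tfpi had no close match, with Syne1 nearest at 0.359. It had only 2 to 42 counts a library, far below the genes compared, and the share of counting error in this distance was not tested. Such likeness over 6 libraries of a 2-group design describes the profiles only.

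Among 20 other genes of the plasminogen system, 10 were tested, of which 2 rose, 3 fell and 5 did not pass. Their median log2 fold change was -0.24, against -0.01 over all tested genes. Of all 14807 tested genes, 18.2% were called higher and 18.4% lower. This list and those below were drawn up from general knowledge, but with earlier results of these data known. Their counts and adjusted p-values are therefore given as a description. Mrc2, an endocytic collagen receptor that joins the urokinase receptor complex, rose from 0.559 ± 0.157 to 5.12 ± 0.673 CPM (edgeR adjusted p = 0.000170). St14, the gene of matriptase, a membrane protease that can activate urokinase, rose 2.34-fold (adjusted p = 0.00171). Lrpap1, the chaperone of LDL-receptor family proteins, fell to 73.1% of control (adjusted p = 0.00598). Lrp1, the endocytic receptor that clears activator and inhibitor complexes, fell to 48.5% (adjusted p = 0.00602). The other fall, named after its value was seen, was that of S100a10, a plasminogen-binding partner of annexin A2 (61.0% of control). Plg itself, the gene of plasminogen, had 0 to 4 counts per library.

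Of 17 other genes of the coagulation cascade, 8 were tested, of which 3 rose, 2 fell and 3 did not pass, with a median log2 fold change of 0.79. Over all tested genes 18.2% were called higher and 18.4% lower, and nothing is read from these counts. Procr, the endothelial protein C receptor that works beside thrombomodulin, rose 4.83-fold from 3.77 ± 1.06 to 18.2 ± 1.15 CPM (edgeR adjusted p = 0.000266). Pros1, the gene of protein S, the cofactor of activated protein C and of TFPI, fell to 58.2% of control (76.9 ± 3.84 to 44.8 ± 1.55 CPM, adjusted p = 0.000546). F5, the gene of factor V, fell to 46.1% (adjusted p = 0.00231). Serpina10, the protein Z-dependent inhibitor of factor X, rose from 0.718 ± 0.140 to 1.71 ± 0.301 CPM (adjusted p = 0.0140), a call lost without shCopa 2 or shCopa 3. Vwf, named after its values were seen, rose from 0.346 ± 0.0767 to 0.904 ± 0.110 CPM (adjusted p = 0.0166), a call lost with the replicate block, without a low-count filter, or without shCon 3, shCopa 1 or shCopa 3. Vwf is known from endothelial cells and megakaryocytes. Their marker sums given above were higher in shCopa mostly through Kdr and Itga2b. Ppbp was also higher (means of 0.155 and 1.19 CPM), while Gp9 and Gp6 were not. Under 10 counts in every library were 5 of 7 endothelial and 4 of 6 platelet and megakaryocyte markers. The part of such cells in the difference of Vwf was not tested. F7 and F9 had no count in any library, so the ligand of tissue factor was not detected at this depth.

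The receptors that sense clotting proteases moved in opposite directions. Of 4 genes, 2 were tested, of which 1 rose and 1 fell, against 18.2% called higher and 18.4% lower over all tested genes. F2r, the thrombin receptor PAR1, was at 1026 ± 14.5 CPM in shCon and fell to 579 ± 19.9 CPM (log2 fold change -0.83 ± 0.08, edgeR adjusted p = 0.000336). F2rl1, the receptor PAR2 that the complex of tissue factor and factor VII can cleave, rose 1.55-fold, from 19.1 ± 3.14 to 29.7 ± 1.30 CPM (adjusted p = 0.00949). Of 8 genes of the vitamin K cycle and of clotting factor export, all 8 were tested, of which 2 fell and 0 rose by edgeR (1 at an unadjusted p under 0.05, 1 by DESeq2 and 0 by limma-voom), and their median log2 fold change was 0.07. The same shares over all tested genes stand beside these counts, and nothing is read from them. Furin, a proprotein convertase, fell to 44.3% of control (155 ± 8.59 to 68.7 ± 4.97 CPM, adjusted p = 0.000169). Ggcx, the vitamin K-dependent carboxylase, fell to 76.4% (adjusted p = 0.0225), a call lost with the replicate block or without any 1 library other than shCon 1. Lman1 and Mcfd2, which together carry factors V and VIII out of the endoplasmic reticulum, did not pass (log2 fold change 0.07 ± 0.11 and 0.30 ± 0.14). Mcfd2 passed without shCon 1, at 0.46, and with the length and GC offsets, at 0.27, and Lman1 turned to -0.02 in both.

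**Figure D4:**
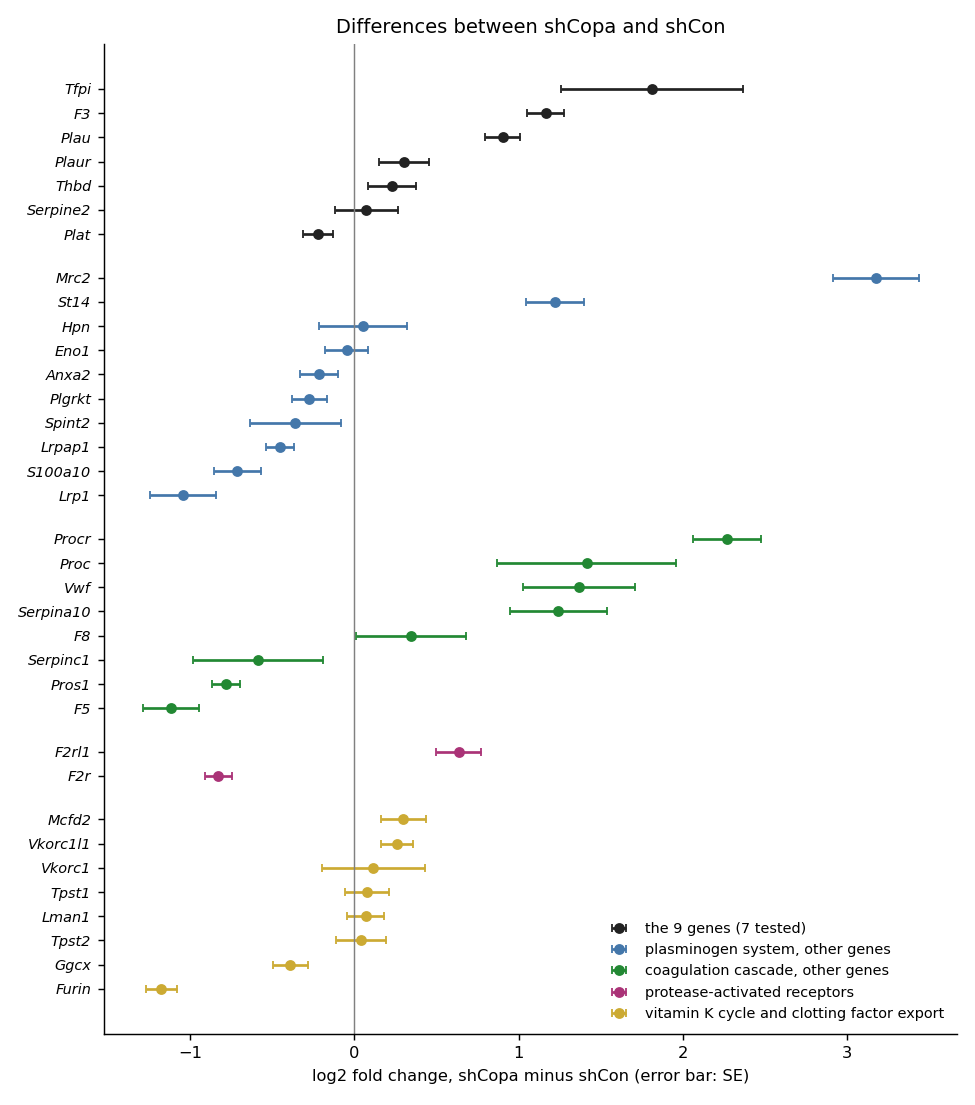
Points give the log2 fold change of shCopa minus shCon and error bars the SE, for the 7 tested genes of the group (black) and the tested genes of the 4 other lists (colours). Within the group the values run from -0.22 for Plat to 1.81 for Tfpi, with a wide error for Tfpi, while Mrc2 (3.18) and Procr (2.27) lie farther out.

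RefSeq promoters, 300 bases each on GRCm38.p6, were at hand for 6 of the 9 genes, with 10 starts in all: 1 each for Serpine2, Plaur and F3, 2 each for Serpinb2 and Tfpi and 3 for Tfpi2. No promoter was used for Plau, Plat and Thbd. Motifs were searched on both strands as exact letters, with N for any base. The AP-1 motif, TGANTCA, was found in F3 (starting 146 and 135 bases before the start), Plaur (69 before), Serpinb2 and Tfpi2, and in 7.81% of all 32851 promoters in the table. The NF-kB motif, GGANTTTCC, was found in F3, 112 bases before the start, and in Tfpi2, and in 1.25% of all promoters. The GC box, GGGCGG, was found in 5 of the 6 genes, 6 times in Serpine2, and in 35.7% of all promoters. The KLF motif, CACCC, was found in 3 genes and 57.5% of all promoters, and in F3 1 such match overlaps the AP-1 match at 135. The ETS motif, GGAAGT, was in Tfpi and Tfpi2 and in 23.8% of promoters, and the letters of the TATA box, TATAAA, were in F3, Serpinb2 and Tfpi and in 13.6%. In F3 they lay on the strand opposite to the gene, 43 to 48 bases after the start. In Tfpi they also lay on the opposite strand, 127 bases before the start. At the first Serpinb2 start they lay on the gene's strand, 29 bases before it. The CCAAT box, AGCCAAT, was in Tfpi2 alone of the 6 (7.86% of promoters), and neither the CRE, TGACGTCA, nor the GATA motif, GATAAG, was in any (1.79% and 7.44%). These counts are by gene, while the shares are by promoter. By promoter, of 10, the GC box was in 6, AP-1 and KLF in 5 each and the TATA box in 4. ETS was in 3, NF-kB in 2 and CCAAT in 1. The 2 Serpinb2 windows overlap and hold the same matches. Of the genes with an AP-1 match, F3 was higher in shCopa, Plaur overlapped with control, and Serpinb2 and Tfpi2 were at or near 0. A part of AP-1 in these levels was not tested. A match is a run of letters, and binding was not measured. The Serpine2 promoter had a GC content of 77.7% and that of F3 70.3%, higher than in 97.9% and 90.9% of all promoters, while the first Serpinb2 start had 35.3%.

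**Figure D5:**
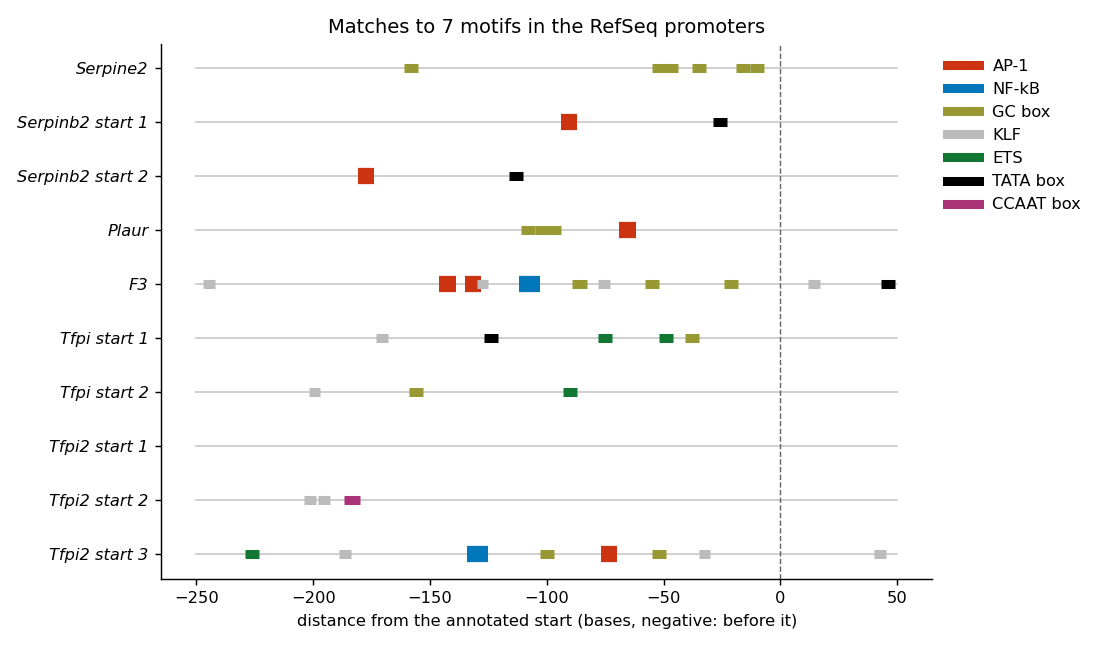
Each row is 1 RefSeq promoter window, from 250 bases before to 50 after the annotated start (dashed line), and coloured blocks mark matches to 7 motifs on either strand, the other 2 motifs having no match. F3 carries its AP-1 and NF-kB matches between 146 and 104 bases before the start, and Serpine2 carries 6 GC boxes and no other match.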

How the data were processed

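The deposited table holds estimated counts by Ensembl identifier, to 2 decimals, as the authors left them. The submitters' processing notes name HISAT2 2.0.5, Trimmomatic, featureCounts, HTSeq and DESeq2 with GRCm39. The counting program, annotation and strandedness behind the values were not given in the sources used here, so reads of near-identical or antisense genes may be divided in unknown ways. Counts were rounded, and symbols came from GENCODE M21 (52081 of 55414 identifiers). The test was that of edgeR 4.0.16, run in R 4.3.3 (TMM scaling, filterByExpr, robust quasi-likelihood F test, group as the only term, Benjamini-Hochberg adjustment over 14807 genes, threshold 0.05); the steps were tested on simulated data. "Rose" and "fell" are used only of genes past that threshold. CPM values use TMM-scaled library sizes over n = 3 libraries a group, and CPM per kb divides by the length of the longest protein-coding transcript in GENCODE M21. At 19634938 to 24546204 counts a library, 3 counts, the floor, are 0.123 to 0.152 CPM on that scale; this covers counting error only. The 9 genes, the 4 other lists and the motifs were chosen with earlier results of these data known. Genes named were the 9, Copa, up to 4 genes per other list with the smallest adjusted p among those past the threshold, and the most similar gene to each. Plg, S100a10, Vwf, F7, F9, Lman1 and Mcfd2 lie outside this rule and were named after their values were seen. A further gene that meets this rule is not reported here and was left out of the list counts. Alternatives were other scaling factors, filters and tools (DESeq2 1.42.0, limma-voom with limma 3.58.1), a replicate block, an adjusted p of 0.01, each library left out in turn, and offsets for transcript length and GC content (lengths for 99.8% of tested genes, trends by mgcv).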

Additional observations from a re-analysis of the deposited data

How the results depend on the processing

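Among the alternatives run, the sign of a log2 fold change of the 7 tested genes turned only for Serpine2, without shCopa 3; the genes were chosen on this contrast, so this is no sign of stability. Of the 9 genes, 2 to 5 were called higher and 0 to 1 lower with 1 library left out (5 and 1 without shCon 1), and 1 lower with offsets for transcript length and GC content. Over all genes, 1590 were higher and 1587 lower at an adjusted p of 0.01, and with 1 library left out 1778 to 4317 were higher and 1755 to 4122 lower, the upper ends without shCon 1. Of the other plasminogen genes, 4 rose without a low-count filter, and of the coagulation genes 1 rose at 0.01 and 1 to 4 with 1 library left out. Of the vitamin K and export genes, 1 rose with DESeq2 and with upper quartile scaling, 2 with the length and GC offsets and 0 to 4 with 1 library left out; 1 fell at 0.01, 1 with the replicate block and 1 to 2 with 1 library left out. Deviations of same-numbered libraries from their group means correlated at r = -0.16, -0.06 and -0.11, and those of differently numbered libraries at -0.11 to 0.23. With 3 libraries a group, these values cannot show whether samples were paired, and the labels do not state it. With the replicate block 3 of the 9 genes were called higher, and 1964 genes were higher and 1939 lower. The cause of these shifts was not tested. Scaling moved the median of all genes by at most 0.03. With at most 42, 4 and 0 counts in any library, the values of Tfpi, Serpinb2 and Tfpi2 have wide counting error, and absence of Tfpi2 cannot be told apart from a level under the floor.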
